A study of Mus musculus with 6 samples.

Results

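The receptors of the common gamma chain family were described in sorted bone marrow progenitors with and without an active form of Notch2. Their members were taken by gene name, as 8 genes: Il2ra, Il2rb, Il2rg, Il4ra, Il7r, Il9r, Il15ra and Il21r. Of 18193 genes named on the array, 7 belong to this list. The platform annotation named 13 of the 45101 probe sets on the array for 7 of these genes. No probe set carried the name of Il2rg, the shared chain itself, and Il2rg was therefore not analysed here.

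The first group, ICN2-positive, came from Rosa-lsl-ICN2 Mx1-cre+ mice (3 arrays, males), and the second, ICN2-negative, from Mx1-cre+ littermates without the transgene (3 arrays, females). ICN2 is the intracellular part of Notch2, which signals without a ligand. It is expressed from the Rosa26 locus once Mx1-cre, a recombinase driven by an interferon-responsive promoter and active in many cell types, has removed a stop cassette. All mice carried Mx1-cre, were 6 weeks old and received 3 doses of polyIC, an inducer of interferon, each of 20 mcg per g. The sort took lineage-negative cells with cKit and without Sca1, 1 week after the last dose. The groups differ in sex as well as in genotype, and these cannot be told apart here. The labels do not say whether replicates were separate animals, so the p-values cover only the variation among these 6 samples, part of which may be technical.

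Receptors of this family pair a cytokine-specific chain with the common gamma chain, and the kinases Jak1 and Jak3 bound to them activate STAT5, STAT3 or STAT6. Il2ra, also known as CD25, and Il15ra hold interleukin 2 and interleukin 15 outside the cell and signal only together with Il2rb and the common gamma chain. Il7r serves early B and T cell progenitors, and Il2ra marks the thymic progenitor stages in which Notch signalling commits cells to the T lineage. The family is best known from lymphocytes, while Il4ra is used widely in the blood system.

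Intensity on the arrays was RMA-normalised, so it can be compared between samples for the same probe set but not between probe sets. Values are log2 intensities. The 40th percentile of an array, at 5.26 to 5.30 on the 6 arrays, was used as the limit for dim probe sets, and it is not a measured background. A probe set was tested in limma where it exceeded this limit on at least 3 arrays, which 27424 probe sets did, and a call means an adjusted p under 0.05 over all of them. In bulk samples, fewer cells of a type and less RNA per cell cannot be told apart. The array least like its own group was ICN2-positive replicate 1, with correlations across probe sets of 0.984 and 0.988 to the other ICN2-positive arrays, which correlated at 0.995, while the ICN2-negative arrays correlated at 0.994 to 0.995. Kit, the gene of the sort marker, lay at 10.15, 10.70 and 10.86 on the ICN2-positive arrays and at 10.46, 10.50 and 10.38 on the ICN2-negative arrays. Kit is 1 of 6 tested genes of markers used to sort progenitors. None of the 6 was called, 2 had the higher mean in ICN2-positive cells and 4 the lower. Cd34 differed by -1.35 ± 0.64 (log2, ± SE, limma adjusted p = 0.266) and Fcgr3 by -2.05 ± 1.02 (limma adjusted p = 0.279). In both, and in Cd4, every ICN2-positive array lay below every ICN2-negative array, while the groups did not overlap in 33.7% of all tested probe sets. Without ICN2-positive replicate 1, the difference was -0.58 for Cd34 and -0.85 for Fcgr3.

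Il2ra rose and Il21r fell in ICN2-positive cells, and no other receptor of the family passed the test. Of the 13 probe sets, 9 passed the filter, from 6 genes. A total of 1 was called higher, where 1.67% of all tested probe sets were, and 1 was called lower, where 0.988% were. Together 2 of 9 were called against 2.65% of all, with the reservation that the Il2ra probe set passed the filter only through the group in which it was high. The groups did not overlap in 4 of the 9 probe sets, 3 of them lower in ICN2-positive cells, while 33.7% of all tested probe sets did not overlap.

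**Figure D1:**
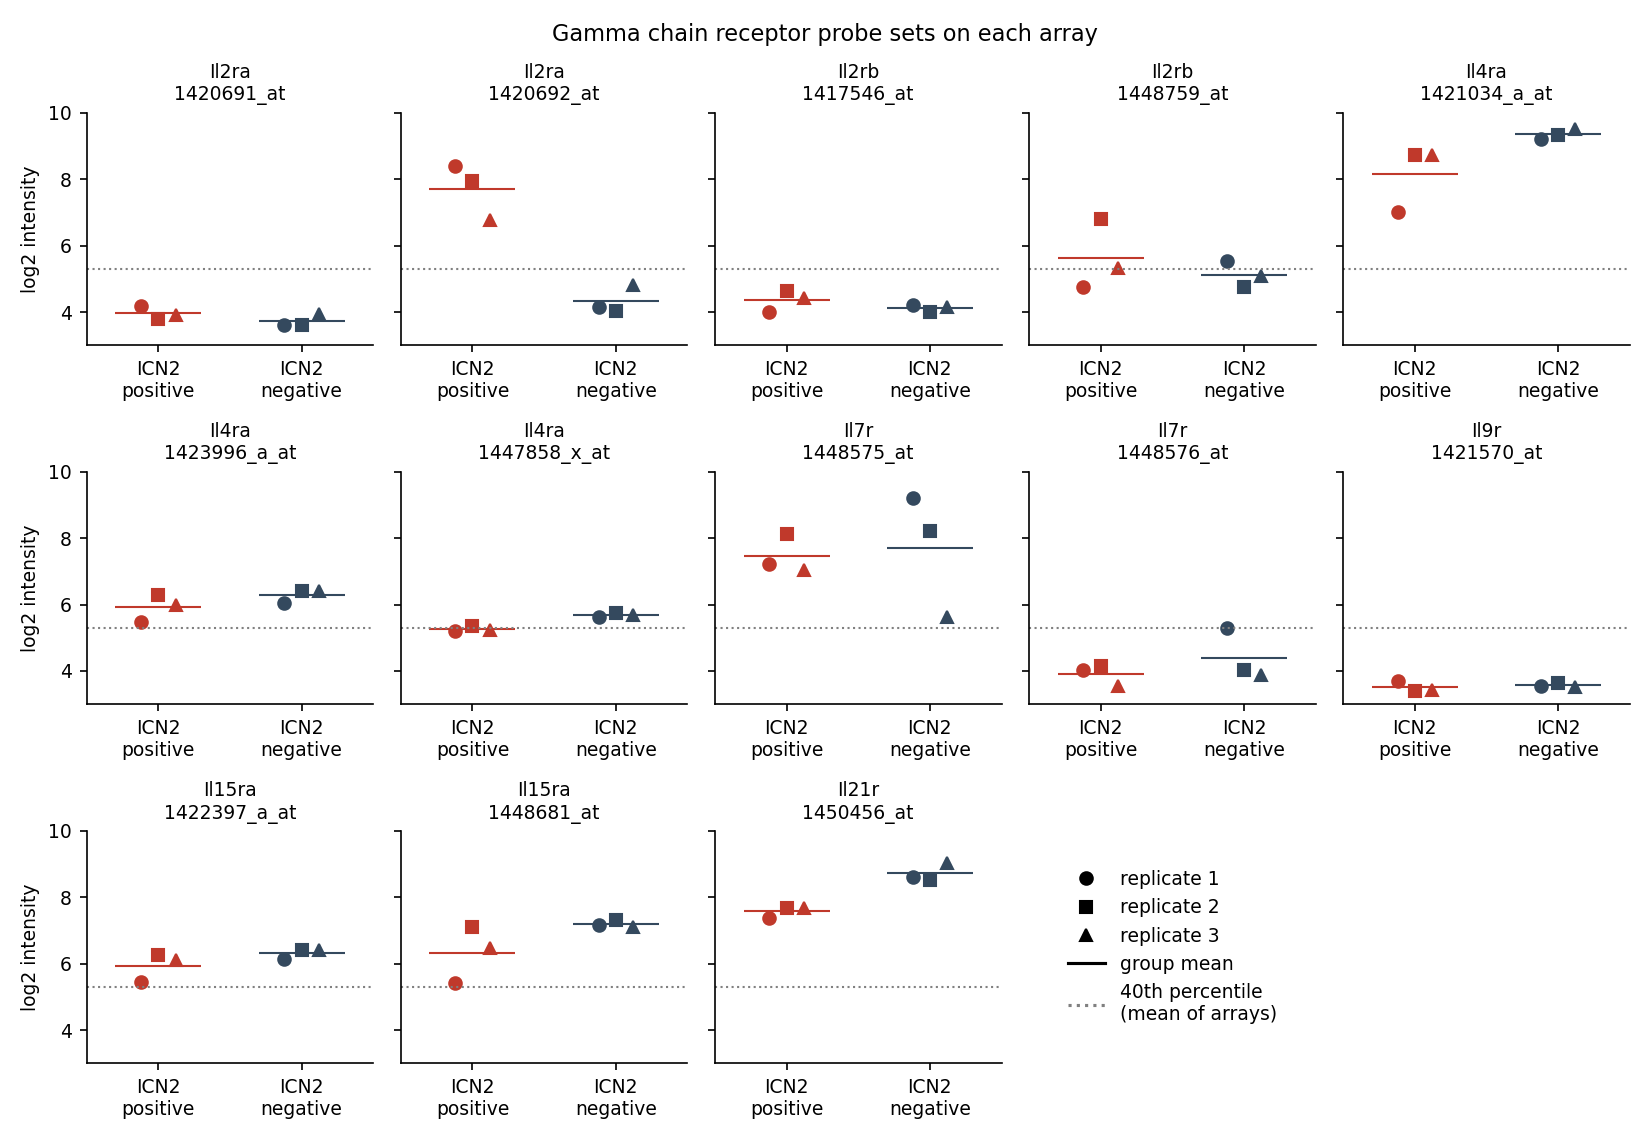
Log2 intensity of the 13 probe sets of the family, 1 panel per probe set, with ICN2-positive arrays on the left, ICN2-negative arrays on the right, symbols for replicates and bars for group means. The dotted line is the mean 40th percentile of the arrays. Il2ra 1420692_at lies above the line only in ICN2-positive arrays, and Il21r is lower on all ICN2-positive arrays than on any ICN2-negative array.

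The alpha chains of the interleukin 2 and interleukin 15 receptors went in different directions by their means. Il2ra, the alpha chain of the interleukin 2 receptor, had intensities of 8.39, 7.94 and 6.77 at probe set 1420692_at in ICN2-positive replicates 1, 2 and 3. It had 4.16, 4.02 and 4.81 in ICN2-negative replicates 1, 2 and 3. All ICN2-positive arrays lay above the dim limit and all ICN2-negative arrays below it, with no overlap. The fitted difference was 3.37 ± 0.45 (log2, ± SE, n = 3 per group, 95% interval 2.25 to 4.49, limma adjusted p = 0.0283). Since the ICN2-negative arrays were below the limit, the rise is given as at least 5.33-fold against that limit. The other Il2ra probe set, 1420691_at, was dim on every array, with means of 3.96 ± 0.20 in ICN2-positive and 3.72 ± 0.18 in ICN2-negative cells (SD, n = 3 each). The rise therefore rests on 1 of 2 probe sets. Its call was lost without any ICN2-negative array or without ICN2-positive replicate 2 (adjusted p = 0.0777 to 0.123), while the difference was 3.02 to 3.83 over the 6 fits that left out 1 array.

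The Il2ra promoter is printed because Il2ra was the receptor that rose, the Il21r promoter because it was the one that fell, and the Il7r promoter because its window holds a STAT-type motif. The sequences come from RefSeq in mouse build GRCm38.p6 and run 5′ to 3′ on the gene's strand, from 250 bases before to 50 bases after the annotated start. RefSeq windows were found for 7 of the 8 genes. Both strands were searched for TGGGAA, the core bound by the Notch partner Rbpj, and for TTCNNNGAA, the STAT consensus. Capitals mark a match.

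Il2ra, chr2:11642542-11642841, plus strand: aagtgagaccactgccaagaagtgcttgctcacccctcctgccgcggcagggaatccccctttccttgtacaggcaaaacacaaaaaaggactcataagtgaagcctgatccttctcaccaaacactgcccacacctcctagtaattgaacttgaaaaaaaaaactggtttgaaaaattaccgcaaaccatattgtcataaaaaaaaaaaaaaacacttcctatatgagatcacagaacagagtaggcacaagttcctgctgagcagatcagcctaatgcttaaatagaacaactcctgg
Il21r, chr7:125603179-125603478, plus strand: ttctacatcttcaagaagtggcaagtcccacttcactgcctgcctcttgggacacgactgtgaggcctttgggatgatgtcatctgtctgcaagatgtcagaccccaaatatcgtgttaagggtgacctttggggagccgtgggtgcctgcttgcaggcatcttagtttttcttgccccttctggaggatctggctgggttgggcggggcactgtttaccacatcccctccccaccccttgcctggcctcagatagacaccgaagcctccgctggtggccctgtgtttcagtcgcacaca
Il7r, chr15:9529827-9530126, minus strand: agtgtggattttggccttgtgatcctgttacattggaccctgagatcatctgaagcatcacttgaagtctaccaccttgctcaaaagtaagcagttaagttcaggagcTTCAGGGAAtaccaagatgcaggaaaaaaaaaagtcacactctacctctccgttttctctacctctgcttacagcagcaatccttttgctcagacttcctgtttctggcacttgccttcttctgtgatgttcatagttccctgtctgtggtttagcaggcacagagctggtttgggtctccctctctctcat

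The Il2ra and Il21r windows held neither motif, and the Il7r window held 1 TTCNNNGAA match, which reads as a match on both strands. The Il2rg window held 1 TGGGAA match, and the remaining windows of the family held neither motif. Of 32851 promoter windows of this length, 25.6% held TGGGAA and 8.3% held TTCNNNGAA. A window without these letters says nothing of sites elsewhere.

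Il15ra presents interleukin 15 to neighbouring cells and lies close to Il2ra on the same chromosome. Its brighter probe set, 1448681_at, read 5.40, 7.12 and 6.46 in ICN2-positive replicates 1, 2 and 3, against 7.16, 7.33 and 7.10 in ICN2-negative replicates 1, 2 and 3. The groups overlapped through ICN2-positive replicate 2, and the lowest array was ICN2-positive replicate 1. The difference was -0.87 ± 0.42 (95% interval -1.91 to 0.17, adjusted p = 0.273), and it was -0.40 without ICN2-positive replicate 1. The second Il15ra probe set, 1422397_a_at, differed by -0.39 ± 0.23.

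Il2rb, the signalling chain shared by the interleukin 2 and interleukin 15 receptors, was near or under the dim limit. At probe set 1448759_at it had 4.75, 6.81 and 5.32 in ICN2-positive replicates 1, 2 and 3, against 5.53, 4.75 and 5.07 in ICN2-negative replicates 1, 2 and 3. Only ICN2-positive replicate 2 was more than 1 log2 unit above the limit. The difference of 0.51 ± 0.55 (95% interval -0.84 to 1.85) became -0.08 without that array. The other Il2rb probe set was below the limit on all 6 arrays, with means of 4.35 ± 0.32 in ICN2-positive and 4.12 ± 0.12 in ICN2-negative cells (SD, n = 3 each). Of the interleukin 2 receptor, the alpha chain was thus measured above the limit in every ICN2-positive array and the beta chain at the brighter probe set in 2 of 3.

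Il21r, the specific chain for interleukin 21, had intensities of 7.38, 7.69 and 7.68 in ICN2-positive cells, against 8.60, 8.53 and 9.04 in ICN2-negative cells (replicates 1, 2 and 3 of each). The groups did not overlap, and all 6 arrays were above the dim limit. Il21r fell by 1.14 on the log2 scale (SE 0.17, 95% interval -1.55 to -0.72, 2.20-fold, limma adjusted p = 0.0345). The size was -1.23 to -0.98 over the fits without 1 array, and the call was lost in each of these 6 fits (adjusted p = 0.0536 to 0.107).

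Il4ra carries interleukin 4 and, together with Il13ra1, interleukin 13, and its gene lies next to Il21r. Its brightest probe set, 1421034_a_at, had 7.01, 8.73 and 8.74 in ICN2-positive cells, against 9.20, 9.34 and 9.51 in ICN2-negative cells (replicates 1, 2 and 3 of each). All ICN2-positive values were below all ICN2-negative values, with ICN2-positive replicate 1 far below its group. The difference was -1.19 ± 0.49 (95% interval -2.39 to 0.01, adjusted p = 0.208), and -0.61 without ICN2-positive replicate 1 (adjusted p = 0.0634). Probe set 1447858_x_at also showed no overlap, at -0.41 ± 0.08 (adjusted p = 0.0652), and probe set 1423996_a_at differed by -0.38 ± 0.23 with overlap. With array weights, 1447858_x_at passed the test (adjusted p = 0.0165). These weights were 0.29, 0.67 and 4.03 for ICN2-positive replicates 1, 2 and 3, so most of the weight in that group fell on replicate 3. In the fits that left out 1 array, ICN2-positive replicate 1 included, 1447858_x_at was not called (adjusted p = 0.0913 to 0.207).

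**Figure D2:**
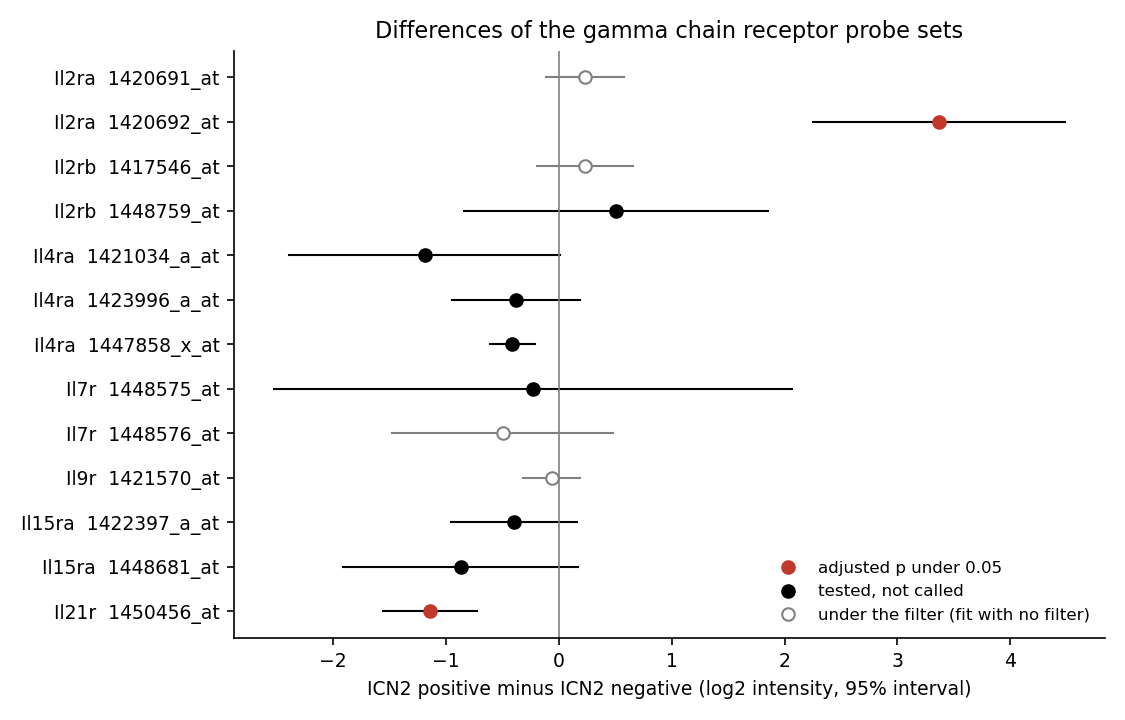
Difference between ICN2-positive and ICN2-negative cells for each probe set of the family (log2 intensity, points with 95% intervals from limma). Red points were called, black points were tested and not called, and open grey points were under the filter and come from the fit with no filter. The Il2ra interval runs from 2.25 to 4.49 and the Il21r interval from -1.55 to -0.72, while that of Il7r covers 0 by more than 2 log2 units on either side.

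Il9r, the receptor chain for interleukin 9, a growth factor of mast cells and some T cells, was below the dim limit on all 6 arrays. Its means were 3.50 ± 0.16 in ICN2-positive and 3.57 ± 0.06 in ICN2-negative cells (SD, n = 3 each), so a difference was not detectable at this signal.

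Il7r, the interleukin 7 receptor chain needed for B and T lymphopoiesis, varied more between replicates than between genotypes. Probe set 1448575_at had 7.21, 8.14 and 7.05 in ICN2-positive replicates 1, 2 and 3, against 9.23, 8.22 and 5.64 in ICN2-negative replicates 1, 2 and 3. The ICN2-positive values lay inside the range of the ICN2-negative ones. The difference was -0.23 ± 0.93 (95% interval -2.52 to 2.06, adjusted p = 0.903). Leaving out ICN2-negative replicate 1 gave 0.54, and leaving out ICN2-negative replicate 3 gave -1.26, so single control arrays set its sign. The second Il7r probe set, 1448576_at, exceeded the dim limit only in ICN2-negative replicate 1, at 5.31.

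B cell genes were spread over the ICN2-negative arrays in the same order as Il7r. All 7 tested B cell markers were highest in ICN2-negative replicate 1 and lowest in ICN2-negative replicate 3. Ebf1, a transcription factor that sets up the B lineage, had 4.34, 5.69 and 4.24 in ICN2-positive replicates 1, 2 and 3, against 10.19, 7.86 and 5.55 in ICN2-negative replicates 1, 2 and 3. Vpreb1, a part of the pre-B cell receptor, had 7.42, 8.73 and 8.04 in ICN2-positive replicates 1, 2 and 3, against 12.24, 10.56 and 8.47 in ICN2-negative replicates 1, 2 and 3. All 7 markers lay below the ICN2-negative mean on every ICN2-positive array. In 5 of them the groups did not overlap, as was so for 33.7% of all tested probe sets. Their summed intensity was 697 to 1868 in ICN2-positive cells and 2401 to 10568 in ICN2-negative cells, and none of the 7 passed the test. Pax5 and Ms4a1 were under the filter. The ICN2-positive values of Il7r lay within its ICN2-negative range, while for Ebf1 and Vpreb1 only ICN2-positive replicate 2 reached into that range. The part of B cell progenitors in the Il7r signal was not tested.

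**Figure D3:**
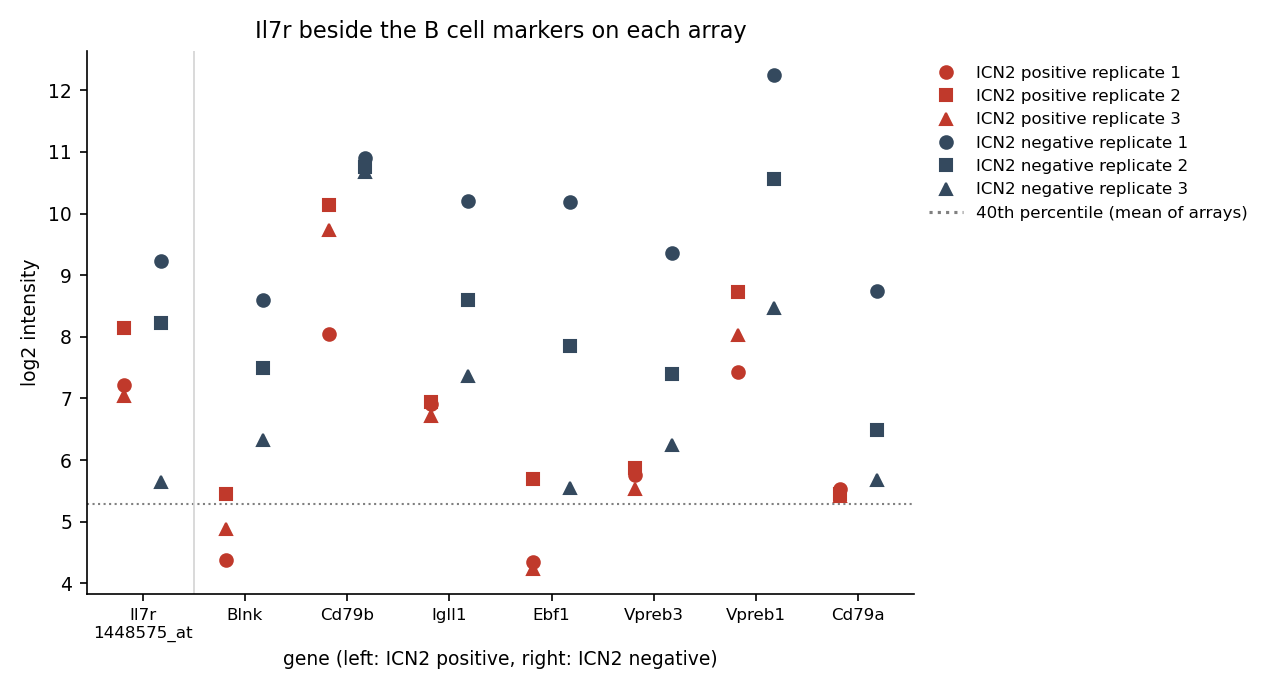
Log2 intensity of Il7r and of the 7 tested B cell markers on each array, with ICN2-positive arrays in red on the left of each gene, ICN2-negative arrays in dark blue on the right and symbols for replicates. The dotted line is the mean 40th percentile. For Il7r, ICN2-negative values run from 5.64 to 9.23 and enclose the ICN2-positive ones, while for Ebf1 they run from 5.55 to 10.19.

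Among the cytokines of the family, Il4 rose. It had 8.41, 8.02 and 8.26 in ICN2-positive replicates 1, 2 and 3, against 5.09, 5.43 and 5.40 in ICN2-negative replicates 1, 2 and 3. The difference of 2.92 ± 0.15 (7.59-fold, adjusted p = 0.00176) passed in every fit without 1 array. The ICN2-negative arrays lay near the dim limit, with 2 of 3 above it, so the fold is read against a dim group. Of 8 listed ligands, 3 passed the filter, 1 was called higher and none lower, with a median difference of -0.97 against 0.02 over all 12837 genes. Over all genes, each read by its brightest probe set, 3.15% were called, 1.89% higher and 1.27% lower. Il15, the ligand of Il15ra and Il2rb, had 3.92, 6.38 and 5.85 in ICN2-positive cells, against 7.53, 7.88 and 7.42 in ICN2-negative cells (replicates 1, 2 and 3 of each). The Il15 groups did not overlap and the difference was -2.23 ± 0.63 (adjusted p = 0.118). Without ICN2-positive replicate 1, the lowest array, it was -1.49 and passed (adjusted p = 0.0411). Tslp, which acts through Il7r paired with Crlf2, differed by -0.97 ± 0.54 (adjusted p = 0.33). Il2, Il7, Il9, Il13 and Il21 were under the filter.

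None of 12 tested partner and related receptor chains passed the test, with a median difference of -0.36. The 3 with the smallest p were Il3ra, the interleukin 3 receptor chain, at -1.17 ± 0.24 (adjusted p = 0.0727), Il10ra at -0.47 ± 0.10 (adjusted p = 0.0727) and Il6ra at -2.70 ± 0.59 (adjusted p = 0.0792). Another Il6ra probe set differed by only -0.33 ± 0.14 (adjusted p = 0.206) with overlap. Without ICN2-positive replicate 1, Il3ra (adjusted p = 0.0485) and Il6ra (adjusted p = 0.00837) were called lower and Il12rb1, a chain of the interleukin 12 receptor, higher at 0.58 (adjusted p = 0.049). Crlf2, the partner of Il7r for Tslp, differed by -0.16 ± 0.17. Il13ra1, the partner of Il4ra, was under the filter.

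Inside the cell, none of 14 tested kinases, STATs and adaptors passed, and their median difference was -0.03. Jak3, the kinase bound to the common gamma chain, had 7.13, 7.52 and 6.98 in ICN2-positive cells, against 7.44, 7.29 and 7.59 in ICN2-negative cells, with overlap. At their brightest probe sets, Jak1 differed by 0.14 ± 0.09, Stat5a by 0.09 ± 0.07, Stat5b by 0.03 ± 0.11 and Stat6 by -0.03 ± 0.07. Dimmer probe sets of Stat5a and Stat5b were higher without overlap, at 0.87 ± 0.29 (adjusted p = 0.147) and 0.47 ± 0.15 (adjusted p = 0.138). That of Stat6 differed by 0.07 ± 0.11 with overlap. Among the brightest probe sets, the smallest p values belonged to the kinase gene Syk at -0.27 ± 0.08, the adaptor gene Shc1 at -0.32 ± 0.09 (adjusted p = 0.118 for each) and the kinase gene Pik3cd at -0.23 ± 0.11 (adjusted p = 0.282). Some dimmer probe sets had smaller ones, without overlap and without a call. These were of Fyn at 0.91 ± 0.21 (adjusted p = 0.0883), Pik3r1 at -0.42 ± 0.10 (adjusted p = 0.0939) and Pik3cd at -0.51 ± 0.14 (adjusted p = 0.114).

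Genes that STAT5 or STAT6 are known to induce were read next. Of 19 tested, 1 was lower, none was higher and 18 did not pass, where 1.27% of all genes were called lower and 1.89% higher. The median difference was 0.14. Ccnd3, a D cyclin, fell by 0.60 on the log2 scale (SE 0.09, adjusted p = 0.0401). Its call was lost without any single array other than ICN2-positive replicate 2 (adjusted p = 0.0632 to 0.153), and another Ccnd3 probe set differed by 1.12 the other way. Cish, a feedback inhibitor that STAT5 induces, had 9.73, 8.45 and 8.80 in ICN2-positive cells, against 7.61, 7.27 and 6.32 in ICN2-negative cells. The Cish groups did not overlap, and the difference was 1.93 ± 0.46 (adjusted p = 0.0883). Tnfrsf18, a receptor of regulatory and activated T cells, differed by 0.90 ± 0.16 (adjusted p = 0.0564), Tnfrsf9 by 0.87 ± 0.16 (adjusted p = 0.0569) and Bcl2, a survival gene downstream of interleukin 7, by -0.68 ± 0.15 (adjusted p = 0.083). Without ICN2-positive replicate 2, Bcl2 was called lower at -0.84 (adjusted p = 0.0405). Tnfrsf9 was below the limit on all ICN2-negative arrays and passed the filter only through the ICN2-positive ones. Against the limit it was at least 1.24-fold higher. Its other probe sets were under the filter, with means of 5.20 and 4.21 in ICN2-positive cells, against 5.15 and 3.99 in ICN2-negative cells.

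**Figure D4:**
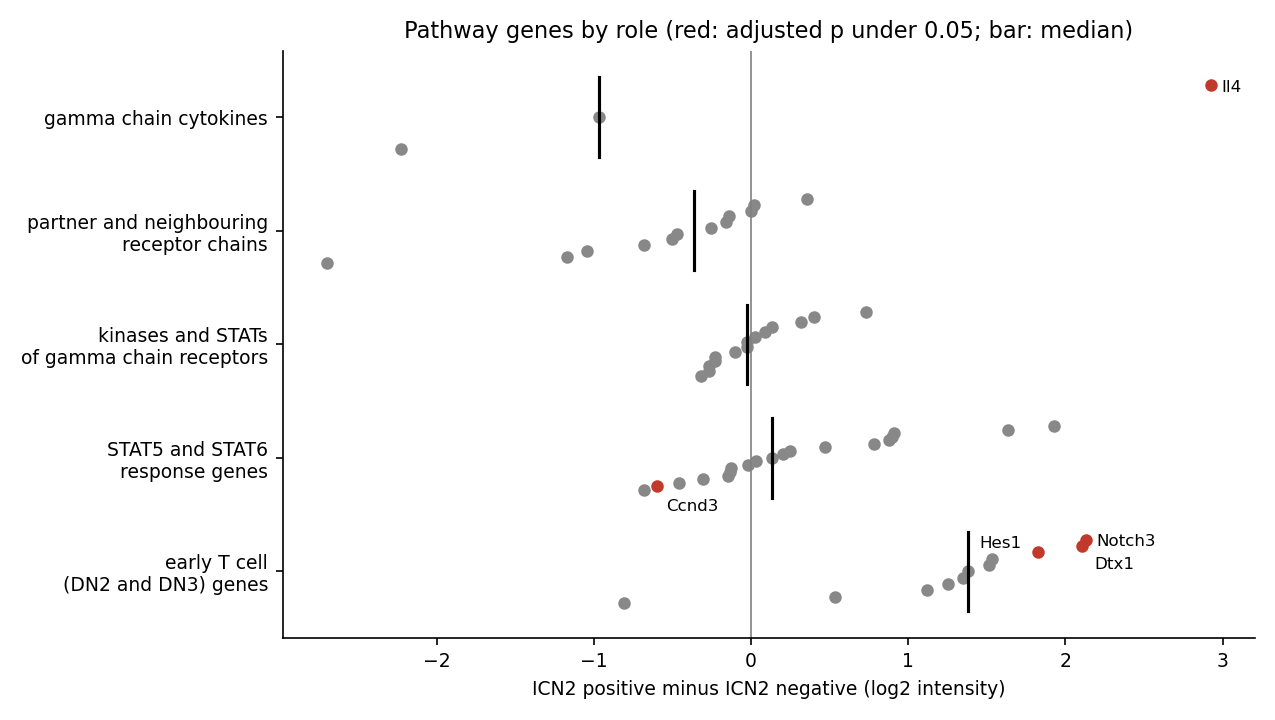
Difference between ICN2-positive and ICN2-negative cells for the tested genes of 5 lists (log2 intensity, 1 point per gene, black bars for list medians). Red points were called and carry their names. Il4 stands at 2.92 in the cytokine list, and the kinases and STATs lie closest to 0, between -0.32 and 0.73.

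Since Il2ra is known from early T cell progenitors, genes of those stages were read beside it. Of 11 tested, 3 rose, none fell and 8 did not pass, where 1.89% of all genes were called higher and 1.27% lower. The median difference was 1.38, against 0.02 over all genes. The 3 that rose are the Notch-responsive genes Hes1 (at 1.82 ± 0.16, adjusted p = 0.00894), Notch3 (adjusted p = 0.00867) and Dtx1 (adjusted p = 0.0488). Notch3 and Dtx1 were below the limit on all ICN2-negative arrays and passed the filter only through the ICN2-positive ones, so the count carries the same reservation as for Il2ra. Against the limit, Notch3 was at least 3.35-fold and Dtx1 at least 2.10-fold higher. The Dtx1 call was lost without any single array other than ICN2-positive replicate 1 (adjusted p = 0.0944 to 0.17). No gene of the list was called without ICN2-negative replicate 3, and 1 was without ICN2-positive replicate 3. Lat, an adaptor of the T cell receptor, differed by 1.53 ± 0.32 (adjusted p = 0.0735). Cd3e, a T cell receptor chain, had 7.17, 7.52 and 6.16 in ICN2-positive cells, against 6.14, 5.40 and 5.27 in ICN2-negative cells, at 1.35 ± 0.41 (adjusted p = 0.131), and Cd3g differed by 1.52 ± 0.54 (adjusted p = 0.166). Ptcra, Rag1 and Rag2 were under the filter. Of 7 lymphoid progenitor genes, the cytokine receptor gene Flt3 fell by 3.71 on the log2 scale (SE 0.29, adjusted p = 0.00717), 6 did not pass and none rose. Dntt, which adds bases at antigen receptor joints, differed by -4.39 ± 0.81 (adjusted p = 0.057) at its brightest probe set, while another Dntt probe set passed at -4.47 (adjusted p = 0.0478) and the last did not, at -3.41. Ly6d differed by -0.31 ± 0.23 and Ikzf3 by 0.87 ± 0.79.

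Markers of other cells that carry Il2ra were read as whole lists. None of 9 tested mature T cell markers passed, although 7 had the higher mean in ICN2-positive cells, with summed intensities of 625 to 1023 in ICN2-positive and 489 to 597 in ICN2-negative cells. Their differences ran from -0.39 (Cd4) to 1.52 (Cd3g), and Cd5 and Cd8b1 were under the filter. Without ICN2-positive replicate 1, Cd6 passed at 1.41 (adjusted p = 0.00979). Of 7 regulatory and activated T cell genes, none passed. Foxp3, which defines regulatory T cells, had 6.39, 6.43 and 6.60 in ICN2-positive cells, against 6.44, 6.49 and 6.47 in ICN2-negative cells. Icos differed by 1.43 ± 0.41 (adjusted p = 0.118), Cd69 by -1.40 ± 0.61 and Lag3 by 0.61 ± 0.42. Without ICN2-positive replicate 1, Icos at 1.89, Lag3 at 1.09 and Ikzf2 at 0.98 were called higher. Another tested Icos probe set differed by only 0.14 ± 0.31 with all arrays (adjusted p = 0.821), with overlap.

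None of 5 group 2 innate lymphoid markers passed (from -1.10 for Hlf to 1.43 for Icos), with Il5, Il13 and Klrg1 under the filter and summed intensities of 281 to 724 in ICN2-positive and 420 to 632 in ICN2-negative cells. None of 4 NK cell markers passed (from -0.81 for Klrk1 to 0.08 for Prf1), with sums of 8442 to 12290 in ICN2-positive and 11665 to 13302 in ICN2-negative cells. Ncr1, Eomes and Tbx21 were under the filter. Of 9 mast cell and basophil markers, 1 rose, the protease gene Mcpt4 (adjusted p = 0.0211), and the lowest difference was -1.49 for Hdc. Over all genes, 1.89% were called higher. Mcpt4 was below the limit on all ICN2-negative arrays and passed the filter only through the ICN2-positive ones, and it was at least 7.05-fold higher against the limit. Its call was lost without any ICN2-negative array or without ICN2-positive replicate 2 (adjusted p = 0.0601 to 0.107), which leaves 0 of the 9 called. Sums of that list were 4201 in ICN2-positive replicate 1, 27471 and 23078 in ICN2-positive replicates 2 and 3, and 15225 to 18892 in ICN2-negative cells. None of 8 monocyte, dendritic and neutrophil markers passed (from -2.05 for Fcgr3 to 0.89 for Itgax), nor did any of 6 erythroid and megakaryocyte markers (from -2.94 for Pf4 to 0.72 for Itga2b). Without ICN2-positive replicate 1, Cd14, a monocyte receptor for bacterial lipopolysaccharide, was called lower at -1.39 (adjusted p = 0.03), against -1.83 with all arrays (adjusted p = 0.0753). The sums of the monocyte and erythroid lists were 9328 to 33958 and 23652 to 27435 in ICN2-positive cells, and 33261 to 42808 and 24642 to 27588 in ICN2-negative cells. The part of any of these cells in the Il2ra rise was not tested.

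The profiles most like that of Il2ra were sought among 4519 named probe sets that spanned at least 1 log2 unit, by Pearson correlation over the 6 arrays. The 8 closest genes were Clrn3 (r = 0.995), Mcpt4 (0.993), Zdhhc2 (0.990), Apbb2 (0.988), Elf2 (0.985), Nudt7 (0.985), Ldhc (0.981) and Nkx1-2 (0.980). All arrays share the 2 genotypes, so any gene with a large group difference scores high, and the likeness is a description. Mcpt4, a mast cell protease, shared the low value of ICN2-positive replicate 3, at 8.70, 8.65 and 6.97 in ICN2-positive cells, against 3.20, 3.76 and 4.19 in ICN2-negative cells. Clrn3 had 7.01, 6.70 and 5.98 in ICN2-positive cells, against 4.14, 3.66 and 4.57 in ICN2-negative cells. Clrn3, like Mcpt4 and Nkx1-2, was below the limit on all ICN2-negative arrays, and it was at least 2.42-fold higher against it.

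Among genes that start within 300 kb of Il2ra, Il15ra included, Il2ra was the only one called of the 6 with a tested probe set. By their brightest ones, Rbm17, the neighbour on one side, differed by 0.21 ± 0.07 (adjusted p = 0.139), and Pfkfb3, a regulator of glycolysis farther on that side, by -0.83 ± 0.25 (adjusted p = 0.13). On the other side, after Il15ra, the helicase gene Fbh1 differed by -0.13 ± 0.13 and Ankrd16 by -0.01 ± 0.18. The neighbourhood within 300 kb of Il4ra, which includes Il21r, was added after the values of these 2 genes were seen. There, Nsmce1, a subunit of a DNA repair complex next to Il4ra, fell by 0.57 on the log2 scale (SE 0.08, adjusted p = 0.0295). Its call was lost without any single array other than ICN2-positive replicate 1 (adjusted p = 0.0507 to 0.124). Gtf3c1, on the far side of Il21r, differed by 0.13 ± 0.08 and Kdm8, beyond Nsmce1, by 0.23 ± 0.08 (adjusted p = 0.388 and 0.16). D430042O09Rik and Gsg1l differed by 0.07 ± 0.22 and -0.09 ± 0.13.

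**Figure D5:**
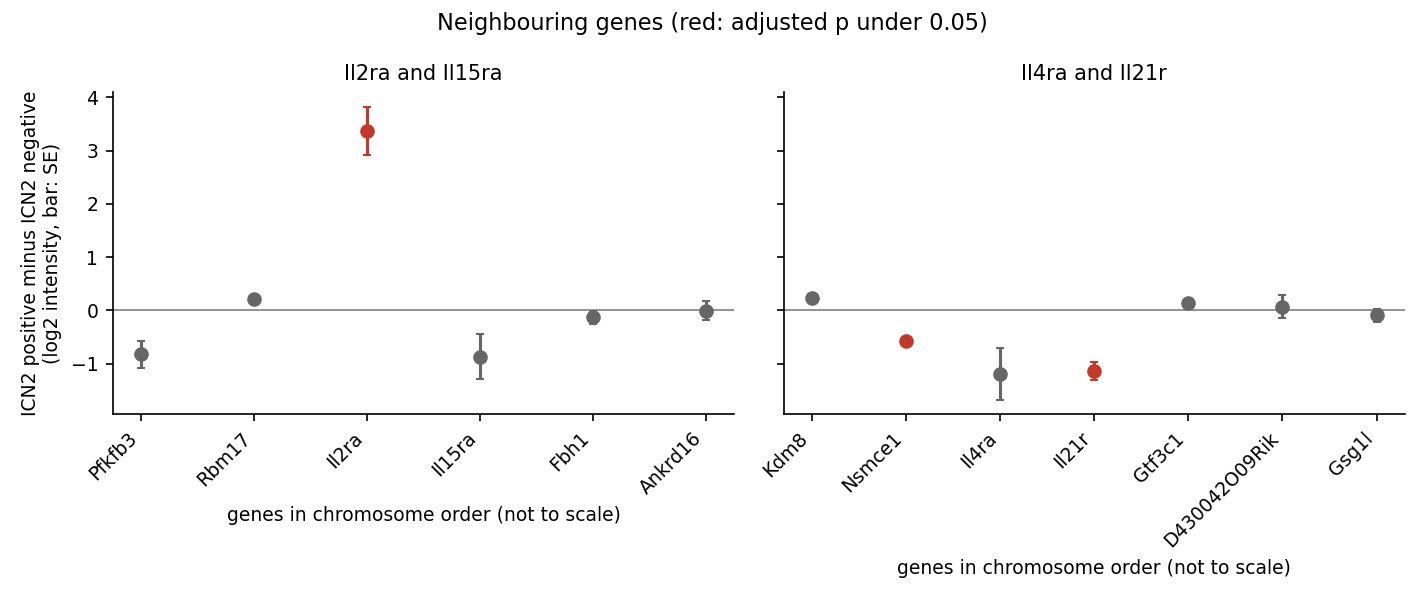
Difference between ICN2-positive and ICN2-negative cells for genes around Il2ra and Il15ra (left) and around Il4ra and Il21r (right), in chromosome order, each read by its brightest probe set (log2 intensity, bars are SE). Red points were called. Il2ra at 3.37 stands alone among its neighbours, and the lower values on the right run over Nsmce1 (-0.57), Il4ra (-1.19) and Il21r (-1.14).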

How the data were processed

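The authors deposited 1 intensity per probe set and array, made with RMA per the submitters' processing notes (a method that corrects background, normalises by quantiles and summarises probes), with the version not given in the sources used here. RNA was amplified from 5 ng per sample per the labels' protocols. RMA equalises the arrays, so a change in total RNA per cell would not be seen, and no detection calls lie behind the values. The number of arrays limits the precision.

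Here log2 was taken and 64 array controls were left out. Of 45101 probe sets, 34958 had 1 gene in the platform annotation, 932 several and 9211 none listed, and only the first were named. Of these, 34754 matched the RefSeq table (GRCm38.p6). Probe sets above the 40th percentile on at least 3 of 6 arrays were fitted with limma 3.58.1 in R 4.3.3 (lmFit, eBayes, no covariate, Benjamini-Hochberg), and every adjusted p comes from it. Listed genes were read by their brightest tested probe set. The fit was tested on simulated data.

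Named genes were all member probe sets, called genes and up to 3 others of smallest p in each pathway list, extremes of marker lists, neighbours within 300 kb and the 8 genes most like Il2ra. Members and lists were chosen with earlier results of these data known. Ebf1, Vpreb1, Foxp3, Crlf2, Cish, Tslp, Kit, Cd34, Tnfrsf9, Cd3e, Cd3g, Jak1, Jak3, Stat5a, Stat5b, Stat6 and the genes called only without an array were named after their values were seen. Alternatives changed the filter, normalisation, variance model, array weights, block, probe set choice and arrays included.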

Additional observations from a re-analysis of the deposited data

How the results depend on the processing

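Without 1 array, the Il2ra difference was 3.02 to 3.83 and the Il21r difference -1.23 to -0.98. The Il2ra call was lost without any ICN2-negative array or without ICN2-positive replicate 2, and the Il21r call in each of these fits. Same-numbered arrays deviated from their group means with correlations of 0.183, 0.101 and 0.095, while differently numbered ones ran from -0.205 to 0.128. ICN2-positive replicates 1 and 2 correlated best with their own number, and ICN2-positive replicate 3 with ICN2-negative replicate 2 (0.128). The labels give no pairing and the main fit used none, but whether same-numbered arrays were paired cannot be told. The replicate block left the differences at 3.37 (adjusted p = 0.0801) and -1.14 (adjusted p = 0.0635), both past the threshold without it. In the other settings that used all arrays, both kept direction and call, except that the stricter filter removes Il2ra. The bound on the Il2ra rise was 3.11-fold at the 50th percentile, and none could be set at the 30th, which ICN2-negative replicate 3 exceeds. Over all probe sets, calls higher and lower in ICN2-positive cells were 712 and 504 with an intensity trend, 2285 and 1685 with array weights, 134 and 134 with the replicate block, and 67 to 436 and 28 to 424 without 1 array, against 457 and 271 with all arrays. Calls were fewest without ICN2-negative replicate 2 or 3, and calls lower were most without ICN2-positive replicate 1. Without 1 array, mast cell markers called higher were 0 to 1 and monocyte markers called lower 0 to 1. In lists, array weights gave 1 ligand lower, 1 partner chain higher and 3 lower, 1 kinase or STAT lower, 4 STAT response genes higher and 3 lower, and 2 activated T cell genes higher. Partner chains lower were 2 with a trend and 1 by gene means. STAT response genes higher were 1 with the stricter filter or the replicate block, 3 with a trend and 2 with either gene-level fit, and lower 0 with no filter, the block or gene means. Early T cell genes higher were 1 with the stricter filter or the block. Lymphoid progenitor genes lower were 2 with the stricter filter, trend, weights, block, either gene-level fit or no _s_at and _x_at probe sets. Without 1 array, counts were 0 to 1 ligand lower, 0 to 1 partner chain higher and 0 to 2 lower, 0 to 2 STAT response genes lower, 0 to 3 early T cell genes higher and 0 to 3 activated T cell genes higher. The lower ligand, the higher and lower partner chains and the 3 activated T cell genes came without ICN2-positive replicate 1, and the 2 lower STAT response genes without ICN2-positive replicate 2. The cause was not tested. In the 4 of 13 family probe sets under the filter, a difference was not detectable at this signal.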
